A study of Mus musculus with 9 samples.

Results

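Wild-type mouse testis on postnatal day 7 was profiled by sequencing of polyA RNA in 3 libraries, named WT-1, WT-2 and WT-3, out of 9 in the study. They were chosen by their labels alone, which read testis and wild type. The other 6 libraries, from testes with targeted Gm1142, alone or together with Gm4779, are not compared here. The labels give no strain and do not say whether each library came from a separate animal, so a spread between the 3 libraries may be technical. Both genes targeted elsewhere in the study were present at a low level, with Gm1142 at 11.2, 9.82 and 9.08 and Gm4779 at 8.40, 9.43 and 11.7 CPM (counts per 1000000 counts of a library) in WT-1, WT-2 and WT-3.

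The testis on this day is built of cords. Sertoli cells, still dividing and immature, line the cords and nurse the germ cells, which are spermatogonia and cells about to enter meiosis. Flat contractile peritubular myoid cells wrap the cords, and Leydig cells between the cords make androgen, with fibroblasts, vessels and macrophages around them. Pachytene spermatocytes, spermatids and sperm form later, in the first wave of spermatogenesis and are not part of the tissue at this age. A bulk library cannot tell apart fewer cells of a type and less RNA per cell.

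The counts summed to 5002119, 5091624 and 4514237 in WT-1, WT-2 and WT-3, and a gene was taken as expressed when it had at least 1 CPM in each of them. Of 56691 genes in the table, 16542 (29.2%) were expressed, 26568 had no count in any library and 4246 more had 1 or 2 counts in all. Among protein-coding genes 13391 of 21871 (61.2%) were expressed, and they held 94.3% of the counts. The counts of expressed list members below are to be read beside this share of 61.2%. The median expressed gene was at 18.6 CPM, or 5.07 CPM per kilobase of exon (CPM per kb), the scale on which different genes are compared below. An SD on that scale is the spread between libraries and does not include the error of the exonic length. Genes with exactly 2 counts outnumbered those with 1 count in each library (2897 against 1276 in WT-1, 2948 against 1280 in WT-2 and 2832 against 1251 in WT-3). Counts thus did not behave as single independent fragments, no source used here gives the setting for read pairs, and a library floor of 3 counts, 0.589 to 0.665 CPM, covers counting error only.

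Mitochondrially encoded transcripts took 30.7% ± 1.73 of all counts (SD, n = 3), with 29.4% in WT-1, 32.7% in WT-2 and 30.1% in WT-3. The 95% Wilson interval reached from 29.3% to 29.4% in WT-1 and from 32.6% to 32.7% in WT-2, so the gap between these libraries was wider than counting error. mt-Co1, a subunit of cytochrome c oxidase, was the most abundant gene of the tissue at 132701, 148866 and 137048 CPM. It was followed by mt-Cytb, mt-Nd1, mt-Nd5, mt-Nd2, mt-Nd4 and mt-Nd6, and these 7 genes held 99.8% of the mitochondrial counts. The other respiratory-chain genes of the same genome were close to empty, with mt-Co2 at 0.355, mt-Co3 at 0.459, mt-Atp6 at 0.273, mt-Nd3 at 0.557 and mt-Nd4l at 0.206 mean CPM and mt-Atp8 at 0 counts. Reads of these genes can match near-identical nuclear copies. One such copy, Gm28438, stood at 107 ± 22.3 CPM, Gm29216 at 30.5 ± 15.8, Gm28437 at 21.7 ± 6.40 and Gm10222 at 9.43 ± 4.24 (SD, n = 3), so the level of every gene in this group is uncertain.

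Among the 20 most abundant genes outside the mitochondrial genome were several for RNA-binding proteins. The splicing factor gene Srsf5 had 2393, 2314 and 2600 CPM and the RNA helicase gene Ddx5 had 1834, 1823 and 1971 CPM. Rsrp1, Hnrnph1, Arglu1, Son, Hnrnpa1 and Hnrnpa2b1, all genes of nuclear RNA-binding or splicing-related proteins, had means of 1448 to 1805 CPM and also belonged to the 20. The translation factor gene Eef1a1 was at 2548, 2403 and 2197 CPM, and other coding genes of the 20 were Appbp2, Lnpep, Eif4ebp2, BC005537 and Ogt. Long noncoding RNAs also stood among the 20: 1700020I14Rik at 3323, 3352 and 3250 CPM, the maternally expressed imprinted transcript Meg3 at 1826, 1587 and 1894 CPM, its neighbour Rian at 1260, 1122 and 1268 CPM, and the predicted genes Gm45889 and AU020206. None of these genes dominated the library. The 10 highest nuclear genes together held 3.27% of the non-mitochondrial counts, the 100 highest held 12.9%, and 1719 genes were needed to reach 50%.

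The share of genes that were expressed differed with exonic length. Of protein-coding genes with up to 1000 exonic bases, 250 of 1904 (13.1%) were expressed, against 59.2% of those between 2000 and 4000 and 88.0% of those over 8000. Among expressed genes the median rose with length from 5.83 to 46.3 CPM, while per kilobase it fell from 8.37 to 4.17. The protamine gene Prm1, with 571 exonic bases, belongs to the shortest class. Of 70 genes for cytosolic ribosomal proteins, with a median of 1736 exonic bases, all 70 were expressed, at a median of 71.5 CPM or 39.5 CPM per kb against 5.07 for all expressed genes. They held 0.764% of the counts and ranged from 6.75 CPM for Rpl38, with 542 exonic bases, to 511 CPM for Rps24, with 6256, genes that were picked after their values were seen. The cut of 1 CPM is not adjusted for length, so a longer gene passes it at a lower level per kilobase. How far the cut, silence of the genes or loss in library preparation set the share in the shortest class was not tested.

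**Figure D1:**
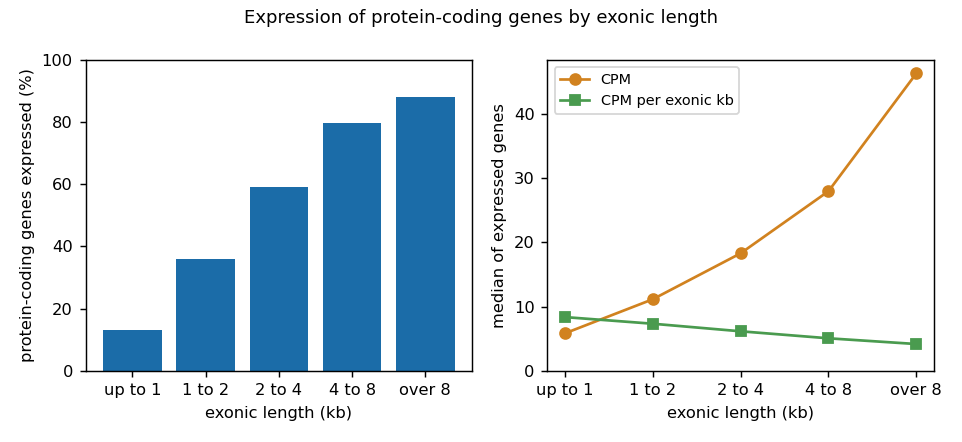
Left, the percentage of protein-coding genes expressed (at least 1 CPM in each of 3 libraries) by exonic length in kilobases; right, the median of the expressed genes in CPM and in CPM per exonic kilobase. The share expressed climbs from 13.1% of the shortest to 88.0% of the longest genes, and the CPM and per-kilobase medians run in opposite directions. The cut of 1 CPM is not adjusted for length.

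Sertoli-cell genes were expressed almost without exception. Of 33 genes of Sertoli identity, 32 were expressed, with a summed level of 3865 CPM in WT-1, 3540 in WT-2 and 3385 in WT-3 and a median of 18.6 CPM per kb, above the 5.07 of all expressed genes. The exception was Rhox5, an androgen-regulated homeobox gene of older Sertoli cells, with 6, 15 and 4 counts. Inha, which encodes the inhibin alpha subunit that restrains pituitary FSH, had 471, 474 and 468 CPM and 319 ± 1.91 CPM per kb (SD, n = 3). It was the highest member per kilobase, and the 3 libraries lay within 1.01-fold of each other, a spread no larger than that of counting.

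Transcription factors of Sertoli cells were present, with the exception of Sry. Sox9, the factor that drives the male fate downstream of Sry, had 58.6, 49.7 and 50.7 CPM. Wt1 had 264, 236 and 251 CPM, Gata4 121, 119 and 120 CPM, and Nr5a1, shared with Leydig cells, 118, 109 and 105 CPM. Dmrt1, which guards the male fate and also acts in germ cells, had 97.0, 103 and 90.6 CPM. In CPM per kb the order was Wt1 at 40.4 ± 2.31, Dmrt1 at 37.3 ± 2.34, Gata4 at 30.7 ± 0.281, Nr5a1 at 26 ± 1.59, Sox8 at 14.0 ± 3.18 and Sox9 at 12.8 ± 1.18. Wt1 and Dmrt1 did not differ beyond their spread, nor did Sox8 and Sox9. Gata1, a factor of maturing Sertoli cells, was low and uneven, with 10.4, 4.52 and 2.88 CPM. The sex-determining gene Sry itself had 0 counts in all 3 libraries, and Foxl2, the ovarian counterpart, had 3.80, 0 and 0.886 CPM.

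Products of the immature Sertoli cell were abundant. Amh, the anti-Müllerian hormone that removes the female duct and is switched off at puberty, had 80.2, 64.6 and 67.1 CPM. Clu, a secreted chaperone, had 592, 508 and 521 CPM, the protease gene Ctsl 518, 449 and 399 CPM, and the gene Mro 362, 355 and 359 CPM. Among small secreted proteins, the cystatin-related Cst9 stood at 124 ± 17.0 and Cst12 at 63.9 ± 5.96 CPM per kb, while Aard, a short gene of fetal and early Sertoli cells, stood at 109 ± 7.67. All 3 stood above the 5.07 CPM per kb of the median expressed gene. Of the 32 expressed identity genes, 21 were highest in WT-1 and 20 were lowest in WT-3, an even tilt that moved the sum by 1.14-fold. The share of all expressed genes that were highest or lowest in each library is not given. This tally and those of the other lists therefore describe the listed genes only.

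Genes that rise as Sertoli cells mature gave a mixed picture. Cdkn1b, the cell-cycle inhibitor p27, had 316, 285 and 307 CPM. Gja1, the connexin of Sertoli junctions, had 296, 270 and 210 CPM, and Shbg, the androgen-binding protein, 66.6, 66.8 and 65.1 CPM. Drd4 had 19.2, 25.5 and 13.7 CPM. Of the tight-junction genes of the blood-testis barrier, which closes after this age, Cldn11 had 41.2, 35.7 and 38.5 CPM, while Cldn3, named after its value was seen, had 4.2, 2.75 and 3.32 CPM. Trf, the iron carrier transferrin that Sertoli cells supply to germ cells, had 11.8, 15.9 and 13.5 CPM, but 63.5% of its exonic bases lie in exons of another gene on the same strand, where reads may not be assigned.

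Dividing cells were well represented. All 20 proliferation genes were expressed, with a sum of 1620, 1443 and 1366 CPM. Top2a, the topoisomerase of replicating chromosomes, had 371, 326 and 333 CPM, Mki67 150, 132 and 99.0 CPM, and the sliding clamp Pcna 107, 92.1 and 82.0 CPM. Sertoli cells, spermatogonia and stroma all divide at this age, so these genes do not mark 1 cell type. Of the 20 genes, 14 were highest in WT-1 and 11 lowest in WT-3.

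**Figure D2:**
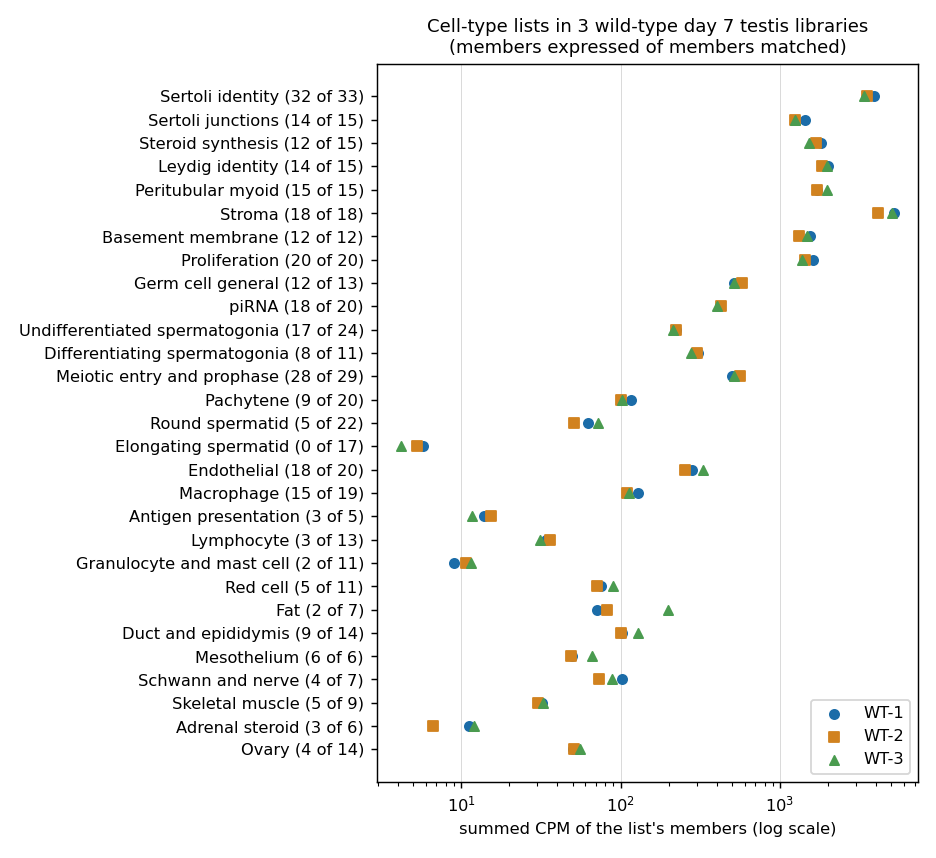
Summed CPM (log scale) of the members of 29 marker lists in WT-1 (circles), WT-2 (squares) and WT-3 (triangles), with the members expressed of those matched in brackets. Points of 1 row are to be compared with each other; rows differ in the number and length of their genes. Most rows overlap closely, the fat row splits at 71.0, 82.1 and 198 CPM, and the elongating spermatid row lies at 4.21 to 5.80 CPM.

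Steroid synthesis genes were expressed unevenly between libraries at some steps. Of 15 genes of the pathway, 12 were expressed, with a sum of 1812, 1691 and 1530 CPM. Star, which carries cholesterol into the mitochondrion, had 30.2, 29.1 and 9.97 CPM. Cyp11a1, which cleaves the cholesterol side chain as the first enzymatic step, had 158, 122 and 51.8 CPM, and its electron donor Fdx1 had 18.6, 24.2 and 11.1 CPM. In all 3 genes WT-3 was the lowest library.

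Later steps split in the same way by gene. Cyp17a1, which makes androgen precursors, had 172, 156 and 47.6 CPM and was again lowest in WT-3. Hsd3b1, the dehydrogenase that acts between these enzymes, had 143, 129 and 157 CPM and was highest there, although it belongs to a family of similar genes whose reads may be shared. Hsd17b3, the last enzyme of testosterone synthesis, had 813, 812 and 842 CPM. At 591 ± 12.2 CPM per kb (SD, n = 3) it was the highest member of the pathway and ranked 44th of all genes by CPM, and its libraries lay within 1.04-fold of each other. In the fetal and early postnatal mouse testis Hsd17b3 is made by Sertoli cells rather than Leydig cells, which is background and not shown by these bulk libraries.

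Cofactor and side-branch genes ranged from 0 counts to 275 CPM. The reductase gene Fdxr had 275, 231 and 248 CPM, Por 22.6, 26.9 and 28.1 CPM, and Cyb5a 61.8, 55.6 and 48.7 CPM. Hsd17b1, better known for oestrogen synthesis, had 93.0, 77.4 and 60.7 CPM. Hsd3b6, the isoform of adult Leydig cells, had 0 counts, where 3 counts over the group would be 0.205 CPM. It is of the same family as Hsd3b1, so its reads may not all be assigned to it. Aromatase, Cyp19a1, had 0, 1.18 and 0 CPM, and the 5-alpha-reductase Srd5a2 had 0.40, 0.589 and 0.222 CPM. Srd5a1, the other isoform, had 4.6, 2.95 and 5.10 CPM, and Akr1c14, which acts after it, had 21.0, 23.0 and 19.7 CPM.

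The fold from highest to lowest library was 3.62 for Cyp17a1, 3.04 for Cyp11a1, 3.03 for Star and 2.18 for Fdx1, against 1.21 for Hsd3b1 and 1.37 for the LH receptor gene Lhcgr. Lhcgr had 20.2, 14.7 and 19.7 CPM and was lowest in WT-2, while Nr5a1 had 118, 109 and 105 CPM and was lowest in WT-3. Of 15 genes of Leydig identity 14 were expressed, with 9 of the 14 highest in WT-1 and 9 lowest in WT-2. Their sum, 2008, 1845 and 1962 CPM, was mostly that of Gstm2 and Akr1cl. Gstm2 had 658, 614 and 636 CPM, Akr1cl 641, 595 and 652 CPM, the lipoprotein receptor Scarb1 116, 126 and 111 CPM, and the progenitor gene Dlk1 110, 93.5 and 110 CPM. Gstm2 has close paralogs, so its counts are uncertain. Evenness differed among the other members. The sulfotransferase gene Sult1e1 had 5.20, 1.77 and 3.77 CPM, and the mitochondrial-membrane gene Tspo 11, 6.68 and 7.09 CPM. Both rest on few counts, 26, 9 and 17 for Sult1e1 and 55, 34 and 32 for Tspo. The activin subunit gene Inhba had 59.97, 46.2 and 40.5 CPM. From highest to lowest library Prlr differed by 1.23-fold, Thbs2 by 1.17-fold and Vcam1 by 1.28-fold. Of the 12 expressed steroid synthesis genes, 7 were lowest in WT-3 and 4 were highest there. What sets WT-3 apart in these genes was not tested.

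Insl3, the peptide hormone of testicular descent and a classic Leydig product, had only 9, 4 and 4 counts, and it is named after its values were seen. Its annotated exons span 623 bases, and 64.9% of them lie in exons of another gene on the same strand. A low count here is therefore no measure of the hormone's transcript. Of 6 adrenal steroid genes 3 were expressed, at under 5 CPM in every library. Akr1b7, a reductase gene, had 4.998, 1.77 and 4.87 CPM, Cyp11b1 had 3.80, 2.16 and 2.66 CPM and Cyp21a1 1.60, 1.77 and 1.77 CPM, while Cyp11b2 had 0 counts.

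**Figure D3:**
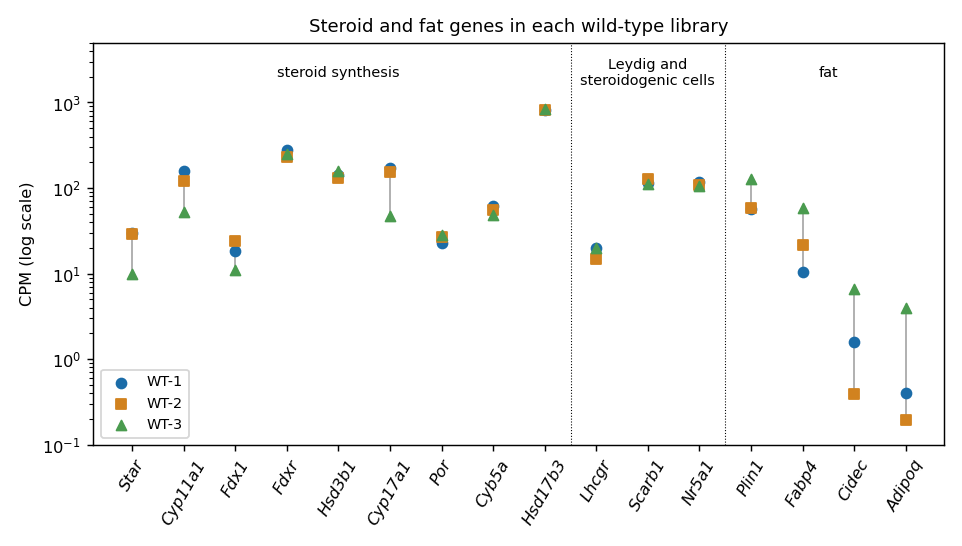
CPM (log scale) of steroid-pathway genes in pathway order, of 3 other genes of steroid-making cells and of 4 fat genes in WT-1 (circles), WT-2 (squares) and WT-3 (triangles), with a line from lowest to highest library. WT-3 is lowest for Star, Cyp11a1, Fdx1 and Cyp17a1, close to the others for Hsd17b3, Lhcgr and Scarb1, and highest for each fat gene. It is also lowest, by a smaller fold, for Cyb5a, Nr5a1 and Scarb1.

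Upstream windows were looked up for 4 genes of high spread only: Star, Cyp11a1, Cyp17a1 and the meiotic-entry gene Stra8. Other variable genes were not looked up. The reference table of RefSeq promoters (GRCm38.p6) has windows for 2 of the 4, Cyp11a1 and Stra8, and their sequences are shown. Each is the 250 bases before a listed start, on the plus strand, with capitals marking AGGTCA or its reverse complement TGACCT, the half-site shared by many nuclear receptors, including Nr5a1 and the retinoic acid receptors. Cyp11a1 has 2 listed starts, with windows at chr9:57997774-57998023 and chr9:58014702-58014951, and Stra8 has 1, with a window at chr6:34920698-34920947. None of these starts is that of the gene in the GENCODE annotation used for lengths: Cyp11a1 lies there at chr9:58006411-58027023, so its first window ends before the gene and its second lies within it, and Stra8 lies at chr6:34920163-34939344, with its window inside. Positions below count from the RefSeq start.
Cyp11a1, first start: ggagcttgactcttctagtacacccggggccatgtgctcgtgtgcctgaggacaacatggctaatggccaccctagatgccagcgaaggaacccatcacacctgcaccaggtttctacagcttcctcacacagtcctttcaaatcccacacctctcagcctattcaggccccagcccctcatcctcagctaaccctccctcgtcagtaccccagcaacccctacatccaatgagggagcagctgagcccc
Cyp11a1, second start: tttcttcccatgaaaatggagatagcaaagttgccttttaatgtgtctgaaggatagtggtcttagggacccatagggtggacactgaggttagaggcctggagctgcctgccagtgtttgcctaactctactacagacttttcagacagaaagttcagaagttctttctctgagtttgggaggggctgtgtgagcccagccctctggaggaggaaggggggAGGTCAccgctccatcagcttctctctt
Stra8: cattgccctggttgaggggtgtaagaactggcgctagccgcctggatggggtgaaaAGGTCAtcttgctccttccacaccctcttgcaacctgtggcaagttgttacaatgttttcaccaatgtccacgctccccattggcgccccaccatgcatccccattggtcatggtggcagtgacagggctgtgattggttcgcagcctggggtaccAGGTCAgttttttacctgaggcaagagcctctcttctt
The letters occurred 0 times in the first window, once in the second, beginning at position -28 from the start, and 2 times before Stra8, at -194 and -38. Of all 32851 windows of this length in the table, 14.0% hold at least 1 match. A match describes the letters only.

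Hormone receptor genes were mostly expressed. Of 22 receptor genes 20 were expressed, the exceptions being Rarb and the mineralocorticoid receptor Nr3c2. Amhr2, the receptor of AMH on Sertoli and Leydig cells, had 92.4, 93.3 and 84.4 CPM and was the highest per kilobase at 44.9 ± 2.44. Fshr, through which FSH drives Sertoli division, had 46.8, 47.1 and 37.9 CPM, or 18.6 ± 2.22 CPM per kb. Thra, the thyroid hormone receptor that paces Sertoli maturation, had 132, 111 and 144 CPM (27.9 ± 3.55 CPM per kb), while Thrb had 5.80, 5.70 and 4.43 CPM. In CPM per kb Amhr2, Thra and Fshr stood apart from each other by more than their spread between libraries, which leaves out any error of length. Oestrogen receptors were low, with Esr1 at 19.99, 16.1 and 18.2 CPM and Esr2 at 9.60, 9.62 and 8.42 CPM.

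Of 24 niche ligand genes 22 were expressed. Kitl, the stem cell factor that spermatogonia need to differentiate, had 162, 145 and 137 CPM, and its receptor Kit on germ and Leydig cells had 35.2, 28.9 and 35.0 CPM. Gdnf, the Sertoli factor that keeps stem cells undifferentiated, had 18.2, 14.1 and 9.08 CPM, with its receptor parts Gfra1 at 10.4, 13.6 and 11.7 and Ret at 14.4, 24.0 and 24.4 CPM. Gdnf was lowest in WT-3 while Ret was lowest in WT-1. Dhh, the hedgehog ligand from Sertoli cells that patterns Leydig and myoid cells, had 41.8, 37.1 and 31.2 CPM, and its receptor and target Ptch1 had 170, 144 and 158 CPM.

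Ligands of the stroma and vessels were present too. Igf1 had 190, 149 and 135 CPM, Cxcl12 71.0, 57.9 and 66.5 CPM, Wnt6 57.6, 58.5 and 55.6 CPM, and Vegfa 46.6, 52.2 and 62.5 CPM. Fgf8 had 0 counts, and Fgf9, a fetal Sertoli factor, had 2.40, 2.55 and 0 CPM. Igf2 was listed at only 4.2, 3.34 and 3.54 CPM, but 62.8% of its exonic bases lie in exons of another gene on the same strand, so its level is uncertain. Among the 25 niche receptor genes, 24 were expressed, led in CPM by Pdgfra at 231, 193 and 212 CPM, the receptor on Leydig progenitors and stroma. Per kilobase Pdgfra was at 21.2 ± 1.90, next to Bmpr1a at 19.4 ± 2.94, a difference within their spread.

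Retinoic acid, the signal that moves spermatogonia towards meiosis, is made and cleared within the cords. Of 12 genes of retinoid handling, 10 were expressed. Aldh1a1, a synthesis enzyme of Sertoli and Leydig cells, had 399, 358 and 361 CPM and stood at 75.5 ± 4.65 CPM per kb, against 12.4 ± 0.642 for Aldh1a2 and 3.65 ± 0.891 for Aldh1a3. Cyp26b1, which degrades retinoic acid, had 69.8, 76.0 and 70.2 CPM, and Stra6, the cellular uptake receptor for retinol, had 39.0, 44.0 and 43.9 CPM. Synthesis and clearance genes were thus both present in every library. The list's sum differed by 1.06-fold and was mostly that of Aldh1a1, while Aldh1a3 had 13.6, 15.5 and 21.5 CPM and the binding protein gene Crabp1 2.0, 4.32 and 4.87 CPM.

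Peritubular myoid genes were all expressed, 15 of 15. The contractile genes led, with Mylk at 386, 441 and 450 CPM, Tpm1 at 390, 386 and 460 CPM, and Acta2, smooth-muscle actin, at 261, 250 and 307 CPM. Per kilobase Acta2 stood at 124 ± 13.7 and the light chain gene Myl9 at 109 ± 6.83. Myh11, the smooth-muscle myosin heavy chain, had 142, 139 and 183 CPM. Of the 15 genes, 12 were highest in WT-3 and none was lowest there, and the sum was 1707, 1706 and 1975 CPM. Tagln had 1.80, 2.16 and 6.20 CPM, though 67.9% of its exonic bases are shared with another gene on the opposite strand. It was named after its values were seen, and no source used here gives the strand setting of the counting.

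Stroma and its matrix were among the most abundant groups. All 18 stromal genes were expressed, with a sum of 5181, 4115 and 5026 CPM and a median of 22.1 CPM per kb. Collagen genes led in CPM: Col3a1 had 1007, 832 and 1069, Col1a2 1028, 741 and 916, and Col1a1 658, 506 and 643. Per kilobase the matrix glycoprotein gene Sparc was highest at 202 ± 33.5. WT-2 was the lowest library for 15 of the 18 genes. The basement membrane on which the cords rest was covered by 12 of 12 genes, with Col4a1 at 236, 183 and 211 CPM, Nid1 at 188, 173 and 189 CPM and Lamb1 at 180, 141 and 168 CPM, and WT-2 was lowest for 8 of them. Mitochondrial counts took the largest share of WT-2, and their part in its lower stromal values was not tested.

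Blood and immune cells were present at a low level. Of 20 endothelial genes 18 were expressed, with a sum of 280, 254 and 328 CPM, led by Egfl7 at 53.2, 51.1 and 70.9, Cdh5 at 37.4, 31.2 and 38.3 and Pecam1 at 35.2, 24.4 and 34.3 CPM. Of 19 macrophage genes 15 were expressed, with a sum of 128, 109 and 112 CPM. Mrc1, the mannose receptor of tissue macrophages, had 28.6, 21.8 and 21.7 CPM, Lyz2 15.8, 12.8 and 12.9 CPM, and Csf1r 12.6, 10.4 and 9.53 CPM. The medians of the lists, 2.14 CPM per kb for endothelium and 1.88 for macrophages, were below that of all expressed genes. Antigen-presentation genes summed to 14.0, 15.3 and 11.7 CPM, and mast-cell and granulocyte genes to 9.0, 10.8 and 11.5 CPM.

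Lymphocyte genes were near the floor, with 3 of 13 expressed. Cd3d and the B-cell gene Ms4a1 had 0 counts, and Cd3e had 0.40, 1.57 and 0.886 CPM. Trac, annotated as the T-cell receptor alpha constant region, stood out at 19.2, 23.8 and 19.3 CPM, while the CD3 genes that the receptor needs at the cell surface were near 0. Red-cell transcripts were also modest: the adult globins Hbb-bs had 27.4, 31.2 and 22.2 CPM and Hba-a1 had 17.0, 16.9 and 27.0 CPM, with reads possibly shared between near-identical copies, and the embryonic globins Hbb-y, Hbb-bh1 and Hba-x had 0 counts.

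Genes of ducts, mesothelium and nerve were measured as well, and several of them are also made in other cells. The duct and epididymis list had 9 of 14 genes expressed, beside 61.2% of all protein-coding genes. It summed to 102, 101 and 128 CPM, with Cdh16 at 25.2, 18.9 and 29.0 CPM, and the epididymal lipocalin gene Lcn5 at 0 counts. Upk3b, a mesothelial gene of the testis surface, had 28.4, 22.8 and 42.3 CPM. Of 7 Schwann-cell and nerve genes 4 were expressed, beside the same 61.2%, with a sum of 101, 73.7 and 87.9 CPM. The highest of them had a mean of 59.7 CPM, while the Schwann-cell factor Sox10 had 0, 1.77 and 1.99 CPM. Fat genes were the most uneven of the lists with more than 1 gene, as described with the variable genes.

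Germ cells were marked by a broad early programme. Of 13 genes expressed across germ-cell stages, 12 were expressed. Dazl, the RNA-binding protein that licenses germ cells for sexual development, had 187, 226 and 186 CPM and stood highest per kilobase at 52.2 ± 5.95. Ddx4, the helicase of germ granules, had 61.4, 65.0 and 71.8 CPM, and Uchl1, a deubiquitinase abundant in spermatogonia, had 53.0, 52.4 and 53.2 CPM. The X-linked genes Taf7l, at 72.4, 70.9 and 57.4 CPM, and Nxf2, at 41.4, 35.0 and 36.3 CPM, were also among the leading members.

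The piRNA pathway, which silences transposons with small RNAs bound to PIWI proteins, had 18 of 20 genes expressed. Piwil2, the PIWI protein of fetal and postnatal germ cells, had 49.98, 42.2 and 50.3 CPM, the helicase gene Mov10l1 32.4, 45.6 and 37.4 CPM, and Mael 31.6, 29.1 and 33.7 CPM. Piwil1, the PIWI protein of pachytene cells, had 2.0, 2.95 and 3.10 CPM. Per kilobase Piwil2 stood at 8.98 ± 0.864. Mybl1, the transcription factor that switches on the pachytene piRNA programme, was nevertheless at 56.4, 44.4 and 48.1 CPM, and Tdrd6, a later tudor protein, had 2 counts in all.

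Of 24 genes of undifferentiated spermatogonia, which include the stem cells, 17 were expressed. Beside the 61.2% of all protein-coding genes that were expressed, such a count alone does not mark a cell type. Zbtb16, a factor of self-renewal, had 24.99, 24.2 and 28.8 CPM. Foxo1 had 31.8, 26.3 and 34.1 CPM, Lin28a 15.4, 21.2 and 19.9 CPM, Sall4 16.8, 15.1 and 13.1 CPM and Id4 7.60, 5.30 and 6.42 CPM. The regulators of the most primitive cells were close to the floor: Nanos2 had 0, 0.982 and 0 CPM, Eomes 2.0, 0.393 and 0 CPM, Pax7 0.40, 0 and 0.443 CPM, Utf1 1.20, 0 and 0.443 CPM and Foxc2 1.20, 0.196 and 0 CPM. Several of these mark few cells or have short transcripts, so such values at this depth are not a proof of absence. Etv5 and Foxo1 are not restricted to germ cells, since Etv5 is a Sertoli gene as well and Foxo1 is made by vessels. Pluripotency genes of earlier germ cells were mostly at the floor, with Pou5f1 at 1.0, 2.16 and 0.443 CPM and Prdm14 at 0 counts.

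Of 11 genes of differentiating spermatogonia 8 were expressed, beside 61.2% of all protein-coding genes. Sohlh1 had 21.2, 22.4 and 21.5 CPM and Sohlh2 12.6, 15.1 and 12.2 CPM, both factors of the step from stem cell to differentiating cell, with almost no spread. Dnmt3b, the DNA methyltransferase of that step, had 20.4, 22.8 and 21.7 CPM. Stra8, which retinoic acid induces before meiosis, had 9.996, 27.5 and 12.6 CPM, so that WT-2 was 2.75-fold above WT-1. Ccnd2 was the highest of the list at 201, 174 and 166 CPM, but this cyclin is also made by somatic cells. The homeobox genes Rhox13 and Rhox10 were at or under 0.786 CPM in every library.

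Meiotic entry and early prophase formed the fullest germ-cell list, with 28 of 29 genes expressed, the exception being Mei4. Meiosin, the partner of Stra8, had 9.40, 10.6 and 12.9 CPM. Genes of the chromosome axis came next: the cohesin Stag3 had 77.6, 73.5 and 75.1 CPM, Sycp2 32.2, 33.2 and 32.6 CPM, Smc1b 31.8, 31.2 and 23.7 CPM, Hormad1 9.60, 12.6 and 9.97 CPM and Rec8 9.20, 10.4 and 15.3 CPM. Sycp3, whose annotated exons share 52.2% of their bases with another gene on the other strand, had 12.2, 13.0 and 6.42 CPM. The axis genes were thus present in every library, with Sycp3 and Rec8 the least even.

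The synaptonemal complex, which holds paired chromosomes together, was represented by each of its genes listed here. Sycp1, its transverse filament, had 31.2, 43.2 and 38.1 CPM, Syce2 37.0, 30.4 and 34.1 CPM, Syce1 14.0, 18.7 and 22.4 CPM and Tex12 15.4, 16.5 and 13.7 CPM. Per kilobase Syce2 at 17.2 ± 1.67, Tex12 at 15.0 ± 1.37, Stag3 at 13.2 ± 0.361 and Syce1 at 12.6 ± 2.88 were the highest members of the meiotic list, and Syce2 and Tex12 did not differ beyond their spread. Recombination genes followed, with the recombinase Dmc1 at 31.4, 23.2 and 31.7 CPM, Spo11, which cuts the DNA, at 9.40, 10.4 and 9.30 CPM, its partner Rec114 at 9.20, 10.4 and 8.64 CPM, and Prdm9, which places the cuts, at 6.6, 7.07 and 5.54 CPM. Msh4 and Msh5, which act at crossovers, had 3.4, 6.48 and 8.86 and 15.2, 17.3 and 19.7 CPM. The list's sum was 500, 565 and 514 CPM, and 16 of the 28 expressed genes, with Stra8 itself among them, were highest in WT-2.

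**Figure D4:**
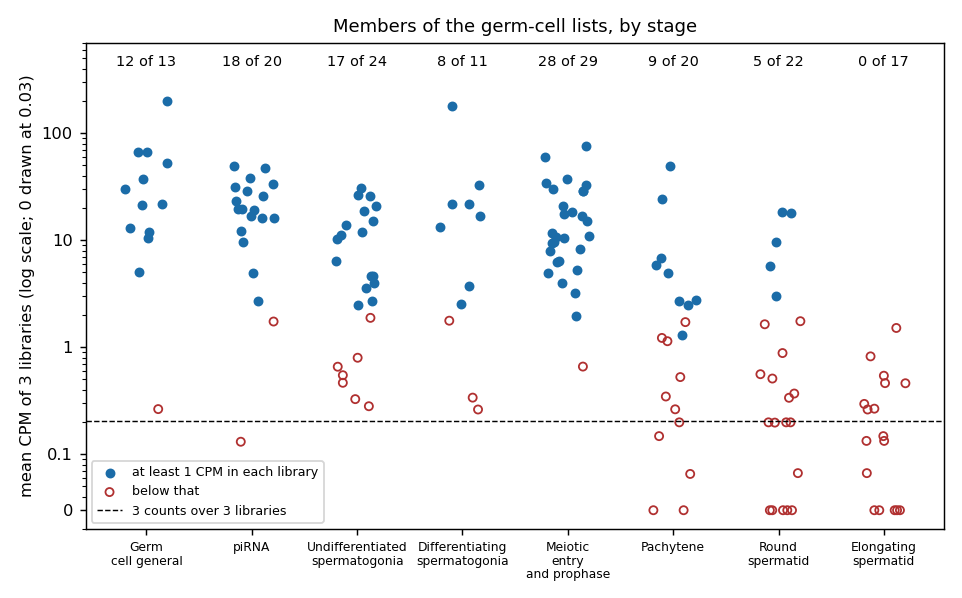
Mean CPM over 3 libraries (log scale, 0 drawn at 0.03) of each member of 8 germ-cell lists; filled points have at least 1 CPM in each library, open points do not, and the dashed line is 3 counts over the 3 libraries (0.205 CPM). Expressed members fall from 28 of 29 meiotic genes to 9 of 20 pachytene, 5 of 22 round spermatid and 0 of 17 elongating spermatid genes.

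Most genes of later germ cells were not expressed by the threshold of 1 CPM. Of 59 genes of pachytene cells, round spermatids and elongating spermatids, 14 were expressed and 19 had under 3 counts in all, of which 12 had none. The others, 7 of pachytene cells, 11 of round spermatids and 8 of elongating spermatids, had at least 3 counts but were below 1 CPM in at least 1 library. All 59 together held 2529 of 14607980 counts. Of 17 genes of elongating spermatids, which pack DNA with protamines and build the tail, none was expressed. Their sum was 5.80, 5.30 and 4.21 CPM. Prm1 had 1, 5 and 2 counts and the transition protein gene Tnp1 9, 0 and 3 counts. Akap4, the main tail-sheath protein, Cabs1, Ropn1 and the spermatid histone gene H1f7 had 0 counts. The highest was Oaz3 at 1.0, 1.77 and 1.77 CPM, with 55.8% of its exonic bases shared with a gene on the other strand.

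Round spermatid genes were also low, with a median of 0.259 CPM per kb. The sperm ion channel gene Catsper1, the egg-coat enzyme gene Spam1 and Actl7a, Actrt2 and Sun5 had 0 counts. The 5 genes that were expressed were Crem at 18.4, 14.9 and 22.2 CPM, Gapdhs at 19.6, 13.8 and 20.6 CPM, Catsper2 at 9.40, 7.07 and 12.4 CPM, Izumo1 at 4.40, 5.30 and 7.53 CPM, and Tssk1 at 2.0, 3.93 and 3.10 CPM. Crem has forms that are made in many cell types, which a count over the gene does not separate. The glycolytic isozyme gene Gapdhs, known from sperm, was 11.2 ± 2.30 CPM per kb (SD, n = 3), above the median expressed gene.

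Of 20 pachytene genes, 9 were expressed. Mybl1 led, and with Ybx2, a binder of stored germ-cell mRNA, at 25.6, 21.0 and 26.6 CPM, it stood well above the rest. Psma8, the germ-cell proteasome subunit, had 4.40, 10.2 and 5.98 CPM, Nme5 6.8, 8.05 and 2.88 CPM, Hspa2 7.80, 4.71 and 2.22 CPM, and Zpbp 4.2, 1.18 and 2.88 CPM. The meiotic glycolysis gene Pgk2 and Spata16 had 0 counts, the linker histone gene H1f6 had 1 and Crisp2 had 2. With 3 counts over the group worth 0.205 CPM, such genes were not detectable at this depth, which is not a proof of absence.

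Most genes were steady between the 3 libraries. The spread beyond counting was measured as the excess CV, the coefficient of variation left after the variance of counting is taken away, over 10664 genes with a mean of at least 10 CPM. The median was 0.0842, and 2606 genes had 0, meaning that their observed variance did not exceed that of counting. With 3 libraries an estimate of 0 does not show that a real spread is absent. With 2 times the counting variance, an alternative chosen after seeing the data, the median was 0.0468. An excess CV of at least 0.3 was found for 368 genes (3.45%), and 275 genes (2.58%) differed by at least 2-fold from the highest to the lowest library. Of the 368, 151 were highest in WT-1, 76 in WT-2 and 141 in WT-3. With 2 libraries the count was higher, 581 without WT-1, 617 without WT-2 and 458 without WT-3. The steadiest among the 1000 most abundant genes, all with an excess CV of 0, were Zfp451, Hnrnpk, Ankrd10, Chka, Inha, Snrnp48, Fem1c, Rpl10, Dhx15 and Lman1.

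Among the most variable genes, fat genes stood out in WT-3. Car3, a carbonic anhydrase abundant in fat and muscle, had 63.6, 41.6 and 283 CPM and the highest excess CV, 1.03. Fabp4, the fatty-acid carrier of fat cells, had 10.4, 21.6 and 58.3 CPM, and Plin1, which coats lipid droplets in fat and steroid-making cells, had 56.4, 59.1 and 127 CPM. Both were highest in WT-3. Of the 7 fat genes 2, Plin1 and Fabp4, were expressed, and the list's sum was 71.0, 82.1 and 198 CPM, a 2.79-fold range. Without WT-3 the mean sum was 76.5 CPM against 117 with it. Of the fat genes not expressed, Adipoq at 0.40, 0.196 and 3.99 CPM and Cidec at 1.60, 0.393 and 6.65 CPM were also highest in WT-3. Lep and Ucp1 had 0 counts there, and the values of Pparg are not given. The Sertoli identity, Leydig identity and stroma sums were highest in WT-1, while the endothelial, mesothelium and duct sums were, like the fat sum, highest in WT-3. The same library was lowest in Star, Cyp11a1, Cyp17a1 and Fdx1, and highest for 12 of 15 myoid genes, and the part of fat cells in these values was not tested. Skeletal muscle also makes Car3. Its list had 5 of 9 genes expressed and a sum of 32.0, 30.4 and 32.6 CPM, mostly from Mylpf, Tnni2 and Tnnt3, and the part of muscle in the Car3 values was not tested.

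**Figure D5:**
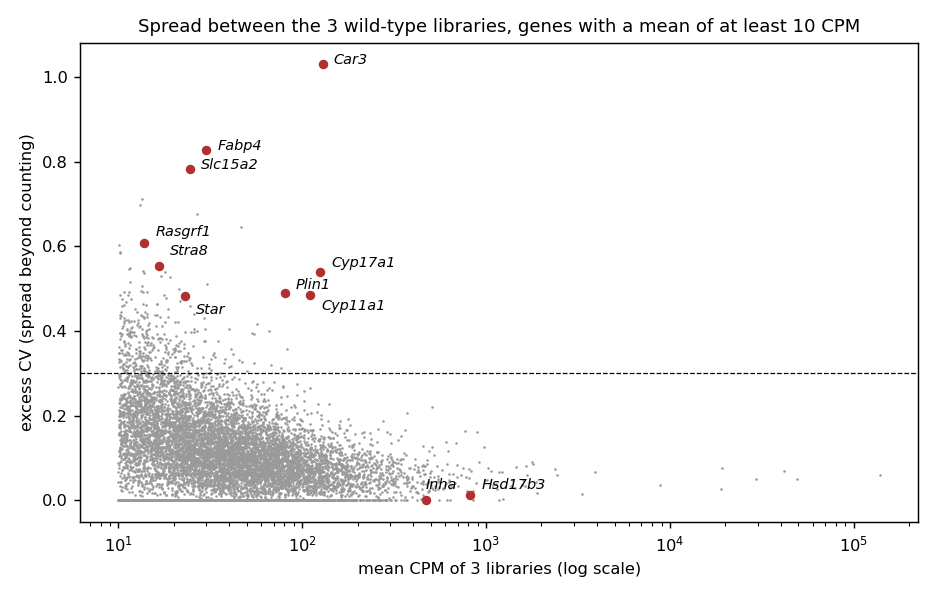
Mean CPM (log scale) against excess CV (the spread of the 3 libraries beyond counting) for 10664 genes with a mean of at least 10 CPM, with the cut of 0.3 dashed and named genes in red. Most genes lie under the line; Car3 is at 1.03, while Inha and Hsd17b3 lie at or near 0.

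Other variable genes had different libraries at the top. Slc15a2, a peptide transporter, had 16.0, 11 and 46.7 CPM, Ankef1 7.2, 8.45 and 24.6 CPM, and Rasgrf1, an imprinted gene for an exchange factor of Ras, 8.20, 9.62 and 23.7 CPM. The extracellular matrix gene Tnc, the cadherin gene Dchs1 and the butyrophilin-like gene Btnl9 were likewise highest in WT-3, by 2.60 to 2.66-fold over the lowest. Genes highest in WT-1 included Arl6, a ciliary trafficking GTPase, at 19.2, 7.66 and 7.98 CPM, the adhesion gene Clmp at 29.2, 13.2 and 11.3 CPM, the kinase gene Nuak1 at 26.8, 15.9 and 8.42 CPM and Rassf8 at 32.4, 21.2 and 10.6 CPM. In WT-2, Taf3, Ntrk3 and Ccn1 were low, at 4.71, 5.30 and 8.25 CPM against at least 14.2 CPM in both other libraries. Stra8, with an excess CV of 0.554, was the only gene of the germ-cell lists among the 25 most variable genes named by rank. With 1 library high or low in each of these cases and 3 libraries in all, each pattern rests on that library.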

How the data were processed

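The authors deposited a table of raw read counts per gene, with 1 column per library, and only the 3 wild-type columns were used. Per the submitters' processing notes, cutadapt, featureCounts, STAR and Bowtie2 were used with the build mm39. No source used here gives versions, strand and pair settings, the annotation release or the handling of reads with several matches, which bear on overlapping genes and near-identical copies. Counts were divided by the library total to give CPM. Exonic lengths and gene overlaps came from GENCODE vM21 (GRCm38), which gave a symbol to 52073 of 56691 genes. Genes without a symbol held 0.462% to 0.510% of the counts. The excess CV subtracts the counting variance of CPM and was tested on simulated counts. Those were drawn as independent counts, unlike the counts here, so that test cannot show how the measure behaves on these data. Python 3.11.15, pandas 2.3.3, numpy 2.4.6, edgeR 4.0.16 and DESeq2 1.42.0 were used.

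No comparison between groups was made and no test was run. The members and the 41 gene lists (608 entries, 600 found by symbol, 5 under an older name and 3 unmatched) were chosen with earlier results of these data known. The rule for named genes took the 20 most abundant genes with and without mitochondrial ones, the 6 highest members of each list and up to 6 under 3 counts, and any member of 8 lists: steroid synthesis, Sertoli identity, hormone receptors, niche ligands and receptors, and undifferentiated, differentiating and meiotic germ cells. It also took the 25 genes of highest excess CV without predicted-gene symbols and the 10 steadiest. A few genes that the rule names are not reported here. Of 564 distinct list genes 409 were expressed. Alternatives were TMM and DESeq2 size factors, totals without mitochondrial genes, thinned counts, other thresholds and edgeR's dispersion. Further ones were the longest transcript as the length and leaving out each library.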

Additional observations from a re-analysis of the deposited data

How the results depend on the processing

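The number of expressed genes, 16542, lay between 12093 and 18905 under all alternatives, and between 17136 and 17239 with 1 library left out. Late germ-cell genes numbered 14, 16 whichever library was left out, 18 without mitochondrial genes in the totals and 20 at 0.5 CPM in each library, but 5 at a threshold of 5 CPM in each library, where fewer genes can pass by construction. Expressed list genes numbered 409 to 424. The number of genes with an excess CV of at least 0.3, 368, was between 458 and 617 with 1 library left out (581 without WT-1, 617 without WT-2), 974 of 13069 genes at a minimum mean of 5 CPM and 96 of 7961 at 20 CPM. It was 291 with 2 times the counting variance, an alternative chosen after seeing the data. Of the 25 genes of highest excess CV, 22 stayed among the 25 with TMM factors and 21 with DESeq2 size factors, but 11, 15 and 5 without WT-1, WT-2 and WT-3, 4 at a minimum mean of 5 CPM and 6 at 20 CPM, so the named variable genes depend on the minimum of 10 CPM. Without mitochondrial genes in the totals, levels rose 1.44-fold on average. With the longest transcript as the length, 34 of the 41 lists kept the same highest member per kilobase, so ranks on that scale depend on the length used. All 41 list sums moved by less than 1 SD with TMM factors. Leaving out 1 of 3 libraries cannot move a mean by 1 SD, so that comparison says nothing of stability: the fat sum, 117 CPM, was 140, 134 and 76.5 CPM without WT-1, WT-2 and WT-3, and the sum for X inactivation, 0.548 CPM from Xist alone, was 0.222, 0.821 and 0.60 CPM. No paired analysis was possible because only 1 group was described and no result comes from a test. At this depth, genes under 3 counts in all could not be told from 0, and genes that share exons with others have uncertain counts.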

Other observations

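Imprinted genes that act on growth were expressed in full, 17 of 17, with a summed level of 4306, 3739 and 4388 CPM in WT-1, WT-2 and WT-3. Besides Meg3 and Rian, H19, a noncoding RNA made from the maternal chromosome, had 172, 126 and 175 CPM, Peg3, a zinc-finger gene made from the paternal one, 217, 169 and 181 CPM, and the growth-restraining factor gene Plagl1 219, 175 and 208 CPM. WT-2 was the lowest library for 12 of the 17. Grb10, an adaptor that dampens insulin signalling, was level at 113, 116 and 124 CPM.

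Of 12 Y-linked genes listed, 7 were expressed, beside 61.2% of all protein-coding genes. The translation factor gene Eif2s3y had 133, 138 and 109 CPM, Ddx3y 109, 82.9 and 86.2 CPM and the demethylase gene Kdm5d 82.2, 64.2 and 70.9 CPM. The spermatid Y genes Ssty1 and Sly, which exist in many copies, had 0 counts, and Xist, which silences the second X in females, had 1.20, 0 and 0.443 CPM. Chromosome X as a whole held 2.41% of the counts with 581 expressed genes.

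Among immediate early genes Nr4a1, an orphan nuclear receptor also used by steroid-making cells, stood far above the rest at 172, 139 and 171 CPM, or 45.8 ± 5.37 CPM per kb (SD, n = 3). Jun was at 5.50 ± 1.08 and Egr1 at 4.6 ± 1.37 CPM per kb.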
